A study of Caenorhabditis elegans with 22 samples.

Results

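The comparison described here was between rotenone-treated worms at 20 days of age and rotenone-treated worms at 10 days of age, in small RNA libraries made from whole animals. It used 5 of the 22 libraries of the series, 2 at day 20 and 3 at day 10, chosen by the treatment and age in the sample labels and by no measured value. All 5 came from hermaphrodites of the wild-type N2 strain of Caenorhabditis elegans kept with rotenone at 0.039441 µg/ml. Rotenone inhibits complex I of the mitochondrial respiratory chain. A second treatment of the series, labelled 2-deoxyglucose with no dose given, supplied 2 libraries at day 20 and 3 at day 10 that are set beside the rotenone libraries where stated. 2-Deoxyglucose is a glucose analogue that blocks glycolysis. The series title names DMSO instead, and the sample labels were followed. No untreated worms were analysed here, so the effects of age and of time spent on rotenone cannot be told apart. No source used here gives the stage from which days were counted, the temperature or the start of exposure. Separate cultures are not stated for the libraries of an age. The p-values rest on the spread among libraries within the 8 groups of all 22 libraries, part of it possibly technical.

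MicroRNAs are short RNAs cut from hairpin precursors by the enzymes Drosha and Dicer, loaded onto Argonaute proteins and guided by their seed to messenger RNAs, whose output they lower. Hairpins with the same seed form families, and neighbouring hairpins on 1 strand are often cut from a single primary transcript. In C. elegans, lin-4 and let-7 time larval development, and several hairpins, among them mir-34, mir-71, mir-80, mir-228, mir-238, mir-239a and mir-246, have been linked to lifespan or stress resistance through mutants. Many others mark a tissue: mir-1 body muscle, mir-60 intestine, lsy-6 and mir-124 sensory neurons, and the mir-35 family eggs and embryos.

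The authors' table held raw counts for 250 hairpins, with both arms of a hairpin in a single value. The day 20 libraries held 1174436 and 1436058 counts, and the day 10 libraries 976553, 1059748 and 1119399. A hairpin was tested when it had at least 10 counts in at least 2 of the 5 libraries, which held for 129 of the 250. Another 121 were not tested, of which 41 had no count in any of the 5 libraries, and none of the 121 had more than 43 counts over all 5. Of the 129, 115 reached 10 counts in both day 20 libraries and in at least 2 day 10 libraries. A further 7 passed through the day 20 libraries alone, of which 3 were called higher below, and 5 through the day 10 libraries alone, of which 2 were called lower. The filter favours such directions in these scarce hairpins. The last 2 passed with 1 library of each age. Levels are given as CPM, counts brought to a common total with TMM scaling, in which 1 count was worth between 0.742 and 1.01 CPM. The hairpins listed as markers of muscle, intestine, neurons, glia and embryos were all detected at both ages, as the whole-worm label implies. In such bulk samples, fewer cells of a type and less RNA per cell cannot be told apart, nor can a change in the number of eggs carried.

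Of the 129 hairpins, 58 changed between the ages (45%; edgeR quasi-likelihood F test, Benjamini-Hochberg adjusted p below 0.05), and these are the hairpins called here. At day 20, 34 were higher (26.4%) and 24 were lower (18.6%) than at day 10. With the 5 libraries fitted and scaled alone the split was 29 higher and 36 lower, and the median change over all hairpins was -0.13 in place of 0.11. The changes ran from -2.04 for mir-78 to 3.28 for mir-2208b on the log2 scale. The median absolute log2 gap between the day 20 and day 10 means was 0.446 over the 85 hairpins with at least 100 counts in each library. Between libraries of 1 age it was 0.157 for the day 20 pair and between 0.120 and 0.202 for the day 10 pairs. For 81 hairpins (62.8%) the 2 day 20 libraries did not overlap the 3 day 10 libraries, and all 58 called hairpins were among them. Where lack of overlap is given below for a called hairpin, it is therefore a description and no separate support. Sequencing lanes 2 and 3 each held 1 library of each age. All 58 differed in the same direction within both lanes, but the lack of overlap already fixes this, so it is no separate support. The 58 kept their direction in each of 15 other ways of fitting, which the lack of overlap makes likely beforehand. Of them, 40 kept their call in all 15.

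**Figure D1:**
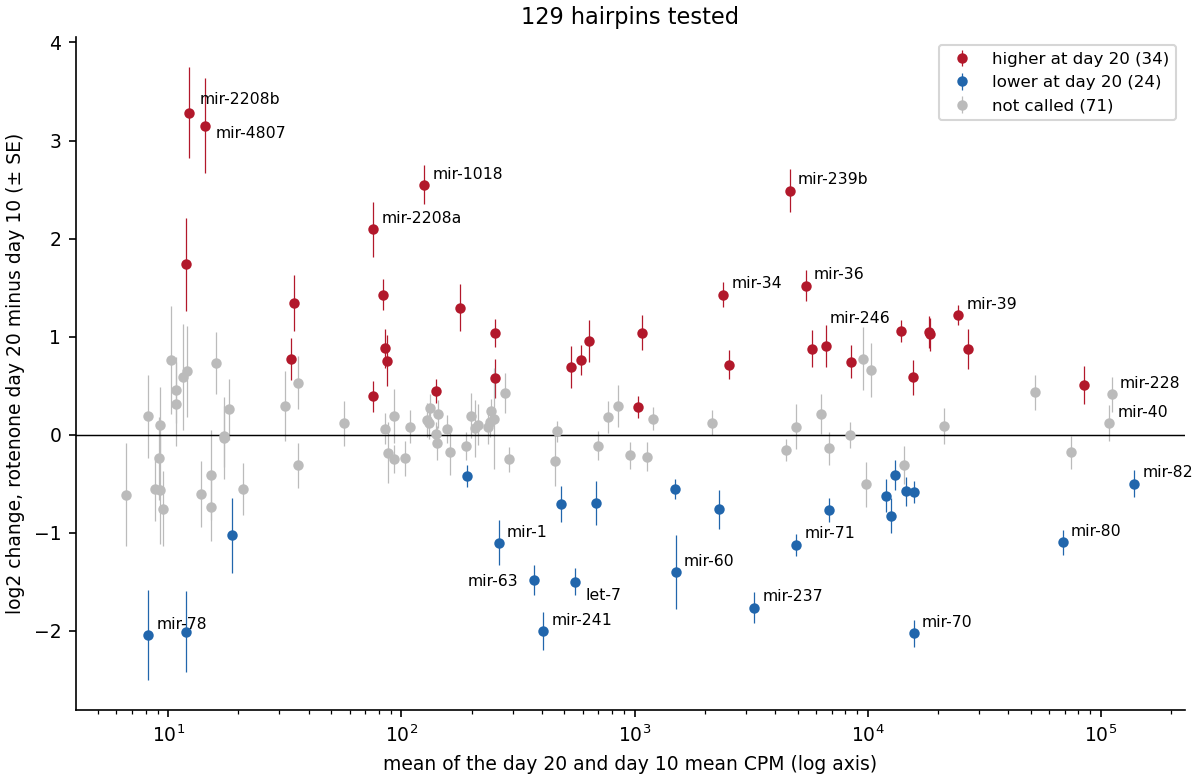
Change of each of the 129 tested hairpins (log2, rotenone day 20 minus day 10, bars are the standard error) against its mean level in CPM on a log axis. The 34 hairpins higher at day 20 are red, the 24 lower are blue, and the others are grey; called changes are spread over the whole range of levels, from mir-78 and mir-2208b at the left to mir-82 at the right.

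The hairpins that take most of the counts exchanged places. mir-82, a relative of the fly microRNA bantam in the mir-58 family, held the most counts in each day 10 library, with 15.9%, 16.2% and 16.8% of the total. In the day 20 libraries mir-82 held 11.4% and 11.0%, and first place went to mir-228 in replicate 1 (13.6%) and to mir-40 in replicate 2 (11.5%). The level of mir-82 was lower at day 20, with a log2 change of -0.50 ± 0.14 (± SE, as throughout; edgeR adjusted p = 0.00422). mir-228, which is expressed in glia, had 134679 and 119372 CPM at day 20, against 104401, 83998 and 98167 CPM at day 10. Its day 20 libraries were above all 3 day 10 libraries, but the log2 difference of 0.41 ± 0.18 did not pass the test (adjusted p = 0.0625). mir-40 differed by 0.12 ± 0.19, and its libraries overlapped between the ages. With counts measured as shares of each library, a change in these few hairpins moves the share left for all others.

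Among hairpins linked to lifespan, 4 of the 9 listed were higher at day 20 (mir-34, mir-239a, mir-239b and mir-246) and 3 were lower (lin-4, mir-71 and mir-80), beside 26.4% higher and 18.6% lower of all tested hairpins. The other 2, mir-228 and mir-238, were not called. This list and the lists below were chosen with earlier results of these data known, so their counts are descriptive. mir-34, whose relatives act downstream of p53 in mammals and which has been studied in worm ageing, had 3129 and 3843 CPM at day 20, against 1276, 1243 and 1363 CPM at day 10. Both late libraries stood clear of the early ones, a 2.69-fold higher level (log2 1.43 ± 0.13, edgeR adjusted p = 1.41e-08). mir-246, a hairpin of chromosome IV whose level in single worms has been tied to remaining lifespan, had 17613 and 19858 CPM at day 20, against 9086, 8712 and 9221 CPM at day 10. The 3 day 10 libraries lay close together, and the rise was 2.08-fold (log2 1.06 ± 0.11, adjusted p = 9.14e-08).

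The mir-238 family did not move as a unit. mir-239b, on the X chromosome, reached 8407 and 7295 CPM at day 20, against 1637, 1404 and 1154 CPM at day 10, a 5.62-fold rise (log2 2.49 ± 0.22, edgeR adjusted p = 1.2e-08). It had the largest rise of any hairpin averaging above 1000 CPM at either age. Its near neighbour mir-239a, on the opposite strand, rose less, with 3151 and 3179 CPM at day 20 and 2038, 1941 and 1810.1 CPM at day 10 (log2 0.71 ± 0.15, adjusted p = 0.00047). The ratio of mir-239b to mir-239a counts was 2.67 and 2.29 in the day 20 libraries, against 0.803, 0.723 and 0.638 in the day 10 libraries. Hence the larger count of the pair belonged to mir-239b in each late library and to mir-239a in each early one. mir-238 itself, with 8513 and 8302 CPM at day 20 and 8845, 8563 and 7853 CPM at day 10, differed by -0.00 ± 0.13, and the 95% interval of that difference ran from -0.27 to 0.27. No source used here says how reads shared by such similar hairpins were counted.

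mir-71, which promotes long life and stress resistance in worms, had 2967 and 3241 CPM at day 20, against 6678, 6488 and 7087 CPM at day 10. It was 2.17-fold lower at day 20 (log2 -1.12 ± 0.11, edgeR adjusted p = 5.03e-08), with no overlap between ages. mir-80, a bantam relative whose loss has been linked to a dietary restriction state, had 44074 and 43216 CPM at day 20, against 98079, 90229 and 91516 CPM at day 10. That was a 2.14-fold fall (log2 -1.10 ± 0.13, adjusted p = 3.12e-07) in a hairpin holding 8.69% to 9.98% of all day 10 counts.

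**Figure D2:**
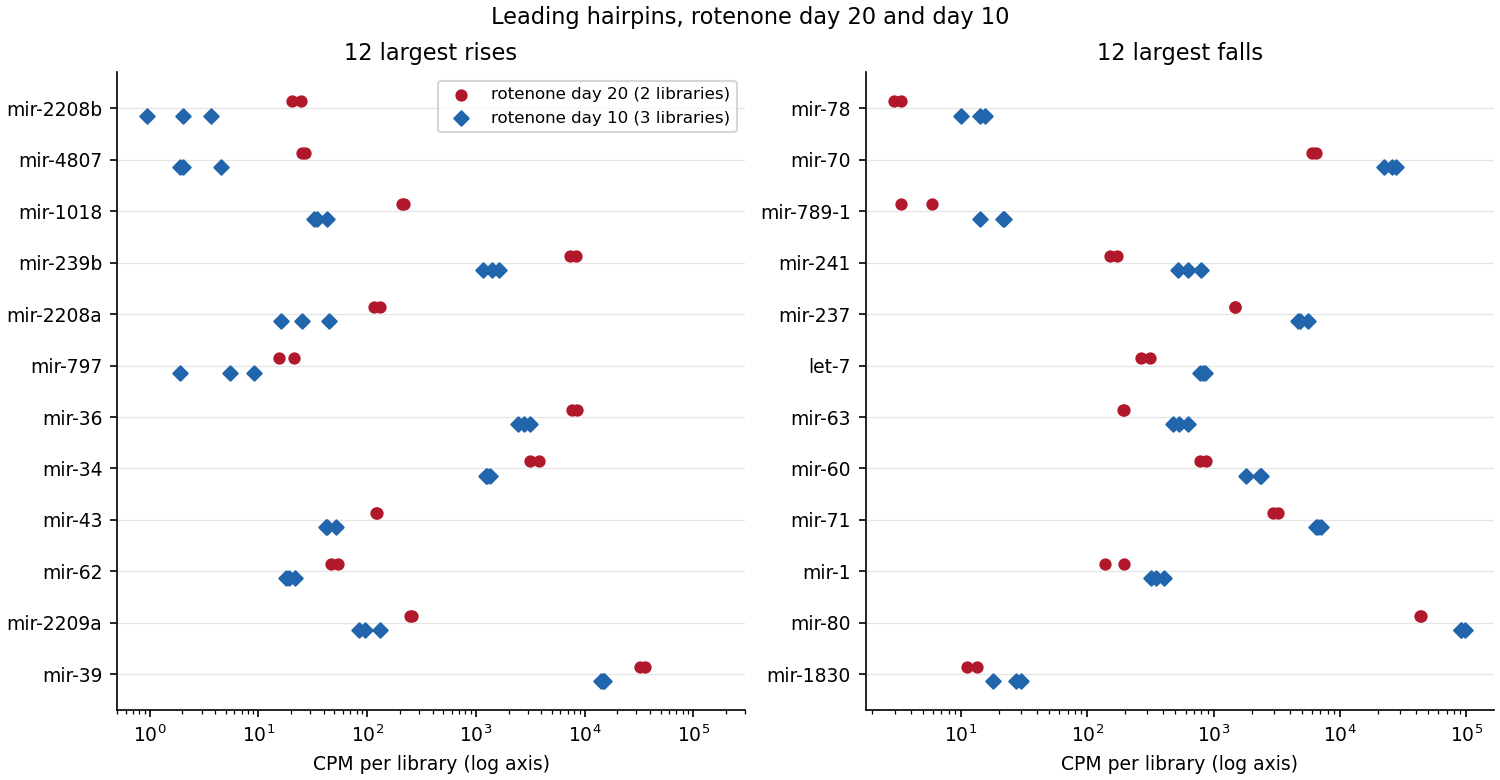
Level in each library, in CPM on a log axis, of the 12 hairpins with the largest rises (left) and the 12 with the largest falls (right) among those called. Red circles are the 2 rotenone day 20 libraries and blue diamonds the 3 rotenone day 10 libraries. The ages do not overlap for any of the 24, as for all 58 called hairpins (62.8% of all tested do not overlap). The counts behind mir-2208b, mir-4807, mir-78 and mir-789-1 are small.

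Of the developmental timers, both members of the lin-4 family and 3 of the 7 of the let-7 family fell, beside 18.6% of all tested hairpins. let-7, which drives the switch from larval to adult fates, had 266 and 314 CPM at day 20, against 855, 784 and 819.9 CPM at day 10. It was 2.82-fold lower in the older worms (log2 -1.50 ± 0.14, edgeR adjusted p = 1.33e-08). Its sister mir-241, which acts earlier in larval life on the timing gene hbl-1, fell further, with 171 and 153 CPM at day 20 and 789, 629 and 528 CPM at day 10 (log2 -2.00 ± 0.19, adjusted p = 2.48e-08). The neighbouring sister mir-48 fell by less, with 12257 and 12939 CPM at day 20 and 19234, 18004 and 19406 CPM at day 10 (log2 -0.58 ± 0.11, adjusted p = 0.00021). The remaining sister mir-84 differed by -0.14 ± 0.17 with overlapping libraries, and mir-793, mir-794 and mir-795 differed by 0.19 ± 0.23, 0.21 ± 0.14 and 0.27 ± 0.15 without passing the test. The median change of the 7 was -0.14, against 0.11 over all tested hairpins.

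mir-237, the other member of the lin-4 family, had 1486 and 1471 CPM at day 20, against 4852, 4619 and 5579 CPM at day 10. The 3.39-fold fall (log2 -1.76 ± 0.16, edgeR adjusted p = 1.2e-08) was larger than that of lin-4, the founding microRNA, which lies in an intron of F59G1.4 and represses lin-14. lin-4 had 341 and 391 CPM at day 20, against 473, 572 and 746 CPM at day 10 (log2 -0.71 ± 0.18, adjusted p = 0.00304). Whether the falls of mir-237 and lin-4 differ from each other was not tested.

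Hairpins of the mir-35 family are made in oocytes and early embryos, where the family is needed for embryonic survival. At day 20, 7 of the 8 rose (26.4% of all tested hairpins did) and none fell, with a median change of 0.91. mir-36 rose most, with 7607 and 8469 CPM at day 20 and 2441, 3175 and 2787 CPM at day 10 (log2 1.52 ± 0.16, edgeR adjusted p = 5.9e-08). mir-39 had 32285 and 36152 CPM at day 20, against 14083, 14923 and 14981 CPM at day 10, and this 2.33-fold rise had one of the smallest errors in the data (log2 1.22 ± 0.10, adjusted p = 8.6e-09). The rises of mir-38, mir-42, mir-37, mir-41 and mir-35 were 1.04, 0.95, 0.88, 0.76 and 0.51. Of these, mir-35 lost its call in 10 of the 15 other fits, including those that left out any 1 of the 5 libraries. mir-41 lost it in 4, among them without day 20 replicate 1, day 10 replicate 2 or day 10 replicate 3, and mir-37 without day 20 replicate 2. mir-40 was the member not called: it had 103319 and 122454 CPM at day 20 and 88707, 104439 and 118022 CPM at day 10. Together the 8 hairpins held 26.9% and 29.8% of all counts at day 20, against 18.4%, 21.9% and 23.0% at day 10.

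Neighbouring members of this family did not keep their proportions. mir-35 to mir-41 lie side by side on chromosome II, on the strand opposite to intronic sequence of Y62F5A.9. The count of mir-36 was 0.0736 and 0.0692 of that of mir-40 at day 20, against 0.0275, 0.0304 and 0.0236 at day 10. For mir-39 the ratio to mir-40 was 0.312 and 0.295 at day 20, against 0.159, 0.143 and 0.127 at day 10. Both ratios were thus higher in each late library than in each early one. Such ratios do not depend on how the libraries are scaled.

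The mir-44 family, which acts in the sperm lineage of hermaphrodites, had 3 tested members, mir-44, mir-45 and mir-61, each called higher (26.4% of all tested hairpins were), while mir-247 was too scarce to test. mir-44 and mir-45 had counts within 2.74% of each other in all 22 libraries, and how their reads were assigned is not given. They are taken here as in effect 1 uncertain measurement, although the counts of called hairpins and the shares given here hold both. mir-44 had 22003 and 27497 CPM at day 20, against 11217, 11022 and 14228 CPM at day 10 (log2 1.03 ± 0.17, edgeR adjusted p = 4.07e-05). mir-61, which represses vav-1 in vulval precursor cells, had 9304 and 11837 CPM at day 20, against 6104, 6137 and 6662 CPM at day 10 (log2 0.75 ± 0.17, adjusted p = 0.00107). Without day 20 replicate 2 its adjusted p was 0.0606. The 4 listed hairpins held 5.37% and 6.27% of counts at day 20, against 2.89%, 2.90% and 3.31% at day 10. Levels of the egg and sperm lists therefore moved with age in the same direction, and their part in the other changes was not tested.

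In the mir-2 family mir-2, mir-43 and mir-250 rose, beside 26.4% of all tested hairpins, and so did mir-797, which the filter favoured in that direction. mir-43 had 119.6 and 123 CPM at day 20, against 51.3, 41.8 and 42.4 CPM at day 10 (log2 1.43 ± 0.16, edgeR adjusted p = 2.23e-07). mir-43 lies between mir-42 and mir-44 on chromosome II, and all 3 of these neighbours rose, by 0.95, 1.43 and 1.03. mir-797 was scarce, with 25 and 21 counts at day 20 and 9, 6 and 2 at day 10; it passed the filter through its day 20 libraries and was not called without day 20 replicate 1. mir-250 (log2 0.76 ± 0.15) and mir-2 (log2 0.69 ± 0.21) were not called without day 20 replicate 2, and mir-2 also not without day 10 replicate 1.

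The bantam relatives of the mir-58 family fell as a share, with 22.9% and 23.7% of all counts at day 20, against 34.5%, 34.9% and 35.6% at day 10. The falls of mir-80, mir-82 and mir-81 passed the test (18.6% of all tested hairpins fell). mir-81 had 11040.3 and 11464 CPM at day 20, against 15469, 14187 and 15213 CPM at day 10 (log2 -0.41 ± 0.16, edgeR adjusted p = 0.037), and lost its call without day 20 replicate 2. mir-58a, with 58485 and 80872 CPM at day 20 and 69176, 76151 and 91358 CPM at day 10, overlapped between the ages (log2 -0.18 ± 0.17, adjusted p = 0.414). With only the 5 libraries fitted, mir-58a passed the test as lower (log2 -0.43 ± 0.18, adjusted p = 0.0467). mir-58b did not pass the filter on low counts.

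In the mir-64 family, 4 of 5 hairpins fell, beside 18.6% of all tested hairpins, and the median was -0.76. mir-63, apart from the others on the X chromosome, fell most, with 194 and 196 CPM at day 20 and 627, 528 and 479 CPM at day 10 (log2 -1.48 ± 0.15, edgeR adjusted p = 5.03e-08). mir-229, mir-64, mir-65 and mir-66 all lie in intronic sequence of gcn-1, and they changed by -0.76 ± 0.20, -0.62 ± 0.17, -0.82 ± 0.17 and -0.15 ± 0.11. Of these mir-66 was not called, with 4147 and 4337 CPM at day 20 and 4692, 4769 and 4697 CPM at day 10. It passed as lower with only the 5 libraries fitted (adjusted p = 0.0178) and with DESeq2 (adjusted p = 0.0416). The ratio of mir-65 to mir-66 counts was 2.23 and 2.07 at day 20, against 3.86, 3.22 and 3.16 at day 10. The call of mir-229 was lost without day 20 replicate 2 (adjusted p = 0.0633).

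Single-tissue hairpins did not all follow 1 course. mir-1, which shapes muscle and its synapses, had 137 and 194 CPM at day 20, against 350.3, 318 and 403 CPM at day 10 (log2 -1.10 ± 0.23, edgeR adjusted p = 0.000481). mir-60 of the intestine had 871 and 779.7 CPM at day 20, against 2388, 2344 and 1799 CPM at day 10 (log2 -1.40 ± 0.38, adjusted p = 0.00422). Both were lower in each late library than in any early one. None of the 4 neuronal hairpins was called by edgeR or by DESeq2, and at an unadjusted p below 0.05 there was 1, mir-791. mir-124 had 13 and 20 counts at day 20 and 7, 8 and 9 at day 10, and lsy-6 had 12 and 9 counts at day 20 and 15, 11 and 5 at day 10, so that only large changes were detectable at this depth. The 95% interval of the log2 difference ran from -0.38 to 1.91 for mir-124 and from -1.12 to 0.63 for lsy-6. mir-790 differed by 0.06 ± 0.29 and mir-791 by -0.56 ± 0.26; mir-791 passed the test when day 10 replicate 1 was left out (adjusted p = 0.0238) and when only the 5 libraries were fitted (adjusted p = 0.0306).

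The deepest fall of a hairpin with a high level was that of mir-70, which lies in an intron of pmp-5 on its own strand. mir-70 had 6439.9 and 5972 CPM at day 20, against 27553, 25890.3 and 22267 CPM at day 10. This 4.07-fold fall had the smallest adjusted p of the comparison (log2 -2.02 ± 0.14, edgeR adjusted p = 5.4e-10). mir-78 (log2 -2.04 ± 0.46) and mir-789-1 (log2 -2.01 ± 0.41) fell as far but from few reads. mir-78 had 4 and 4 counts at day 20 and 10, 17 and 15 at day 10, and mir-789-1 had 4 and 8 at day 20 and 14, 24 and 23 at day 10. Both passed the filter through the day 10 libraries alone, and mir-789-1 can share reads with its copy mir-789-2, which was not called. mir-1830, in an intron of paic-1, had 13.5 and 11.1 CPM at day 20 and 30.2, 27.2 and 17.9 CPM at day 10 (log2 -1.03 ± 0.39, adjusted p = 0.0358), and lost its call in 5 of 15 other fits, among them without day 20 replicate 2, day 10 replicate 1 or day 10 replicate 2.

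The steepest rises came from scarce hairpins. mir-2208b had 24 and 33 counts at day 20 and 2, 4 and 1 at day 10 (log2 3.28 ± 0.46, edgeR adjusted p = 5.3e-06). mir-4807 had 30 and 36 counts at day 20 and 2, 5 and 2 at day 10 (log2 3.15 ± 0.48, adjusted p = 1.78e-05). Both entered the test through their day 20 libraries. mir-1018 stood on firmer ground, with 208 and 219 CPM at day 20 and 32.2, 34.5 and 42.4 CPM at day 10 (log2 2.55 ± 0.20, adjusted p = 2.27e-09). It lies with mir-4807 in a stretch of the X chromosome that holds 11 hairpins of the table; these 2 were the ones with enough counts to test. mir-1018 was listed with the mirtrons, whose hairpin ends are made by splicing, although the annotation used here places it in no gene. The other tested mirtron, mir-62 in ugt-50, had 46.3 and 53.4 CPM at day 20, against 18.1, 19.1 and 21.6 CPM at day 10 (log2 1.34 ± 0.28, adjusted p = 0.000526). The listed mirtron mir-1020 was too scarce to test and went the other way, with 1 and 3 counts at day 20 and 7, 13 and 7 at day 10. With no filter beyond 1 count in the 5 libraries, 2 of the 3 listed mirtrons were called higher and 1 lower. The neighbours of mir-2208b on chromosome IV, mir-2208a and mir-2209a, did not depend on the filter in this way, and both rose, mir-2208a with 131 and 116 CPM at day 20 and 16.1, 25.4 and 44.2 CPM at day 10 (log2 2.09 ± 0.28, adjusted p = 3.24e-06).

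**Figure D3:**
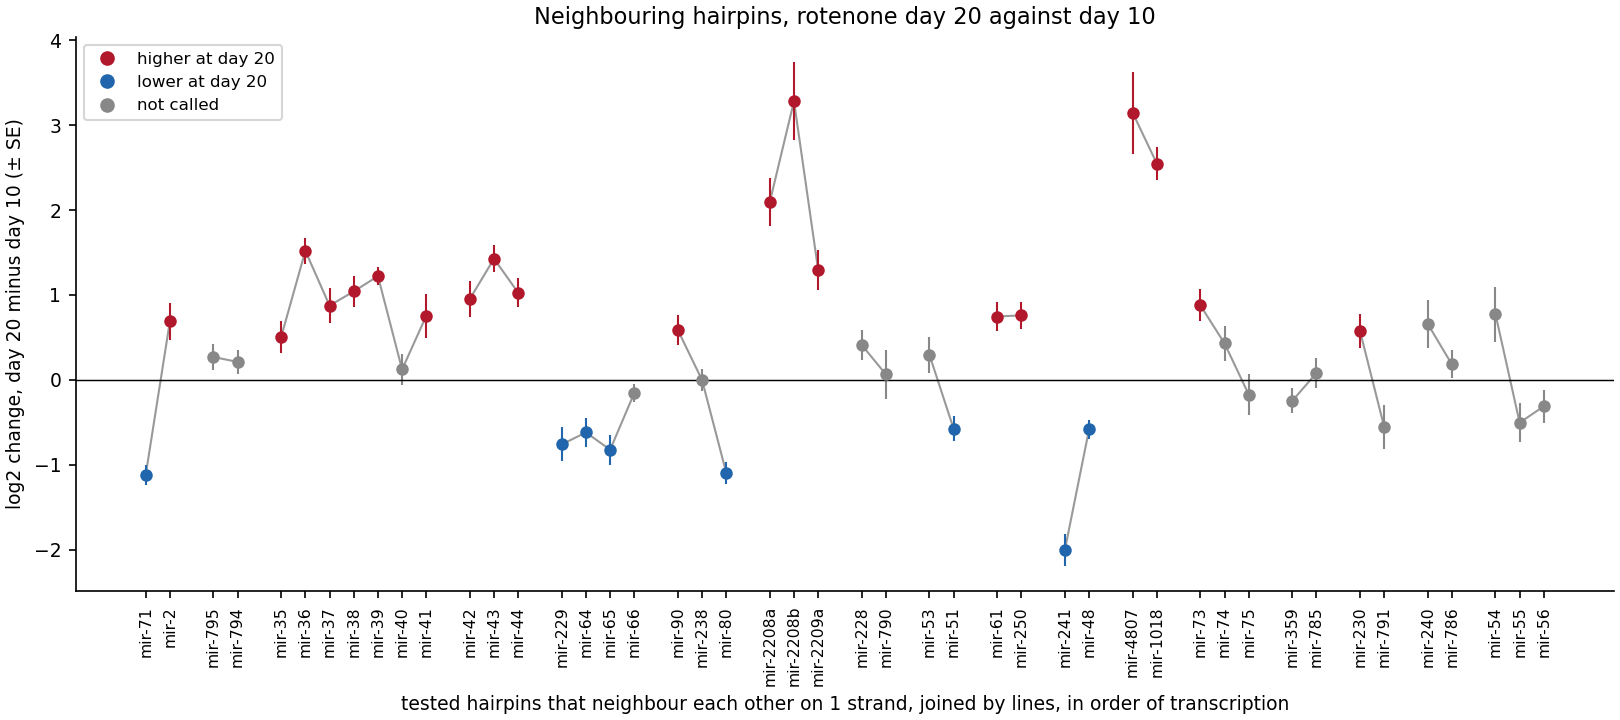
Log2 change (rotenone day 20 minus day 10, bars are the standard error) of tested hairpins that neighbour each other on 1 strand within 10000 bases, joined by lines in the order of transcription. Red points were called higher at day 20, blue points lower and grey points neither; mir-71 and mir-2 lie in opposite directions, while mir-61 and mir-250 lie together.

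Hairpins that lie together did not always change together. mir-71 and mir-2 both lie in intronic sequence of ppfr-1, and mir-71 fell (log2 -1.12 ± 0.11) while mir-2 rose (log2 0.69 ± 0.21). mir-90, mir-238 and mir-80 on chromosome III changed by 0.59, -0.00 and -1.10; the rise and the fall were called. mir-241 and mir-48 fell unequally: the ratio of their counts was 0.0139 and 0.0118 at day 20, against 0.0410, 0.0349 and 0.0272 at day 10. In contrast mir-61 and mir-250 on chromosome V rose by nearly the same amount, 0.75 and 0.76. The X chromosome carried 43 of the tested hairpins, of which 12 rose and 6 fell, and chromosome II carried 23, of which 10 rose and 4 fell, beside 34 rises and 24 falls among all 129. These pairs were picked after their values were seen, and no difference within a pair was tested.

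Smaller families gave fewer calls. In the mir-51 family, which works in the pharynx and embryo, mir-52 rose, with 8622 and 8638 CPM at day 20 and 4430.2, 4149 and 5243 CPM at day 10 (log2 0.91 ± 0.22, edgeR adjusted p = 0.00152). mir-51 fell, with 11561 and 11879.6 CPM at day 20 and 17627, 15988 and 18813 CPM at day 10 (log2 -0.58 ± 0.15, adjusted p = 0.0026). Of the neighbours mir-54, mir-55 and mir-56, none was called, at 0.78 ± 0.32, -0.50 ± 0.23 and -0.31 ± 0.19. With the sequencing lane added to the fit all 3 passed the test, at 0.93 ± 0.15, -0.52 ± 0.17 and -0.36 ± 0.12 (adjusted p = 8.26e-05, 0.0196 and 0.0224). They also passed it with only the 5 libraries fitted, and mir-55 in 5 further settings, among them RLE scaling, total counts and DESeq2 (adjusted p = 0.0482, 0.0346 and 0.0331). Among the miR-31 relatives, mir-73 rose (log2 0.88 ± 0.19, adjusted p = 0.00057), while mir-72 (log2 0.43 ± 0.18, adjusted p = 0.0545) was the hairpin nearest to the threshold that was not called. mir-72 passed as higher with total counts (adjusted p = 0.0422) and with the scaling that left out the most counted hairpins (adjusted p = 0.0289). mir-74, the remaining relative, passed with the lane in the fit (adjusted p = 0.00971). mir-83, a miR-29 relative, fell (log2 -0.69 ± 0.23, adjusted p = 0.0153), and its relative mir-49 was not called. mir-233 and mir-86 rose by 0.45 ± 0.13 and 0.28 ± 0.11, while their relatives mir-87 and mir-785 were not called. The call of mir-83 was lost without day 20 replicate 2, that of mir-86 in 12 of the 15 other fits and that of mir-233 in 6. Neither member of the mir-46 family or of the mir-75 family was called, nor was mir-232. Of these, mir-47 passed as lower with only the 5 libraries fitted (adjusted p = 0.0191) and without day 10 replicate 1 (adjusted p = 0.0179).

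Outside the lists and the hairpins chosen by rank, 5 more hairpins rose and 3 more fell, and these are named after their values were seen. The rises were mir-1022 (1.04 ± 0.14), mir-231 (0.88 ± 0.20), mir-4813 (0.78 ± 0.21), mir-90 (0.59 ± 0.18) and mir-230 (0.57 ± 0.20). mir-230 lost its call in 6 of the 15 other fits, mir-90 in 5 and mir-4813 in 2, and mir-231 without day 20 replicate 2. The falls were mir-77 (-0.77 ± 0.12), mir-245 (-0.56 ± 0.10) and mir-1829b (-0.42 ± 0.11). mir-1829c was the last hairpin to be called (log2 0.39 ± 0.16, edgeR adjusted p = 0.0489) and lost its call in 14 of the 15 other fits.

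Earlier ages of the rotenone worms place these late changes on longer courses. The change between days 10 and 1 shares the day 10 libraries with the comparison above, so the values are only set side by side. In that earlier interval 70 hairpins changed (54.3%), 40 of them higher (31%) and 30 lower (23.3%) at day 10. The day 1 libraries ran in lanes 4, 5 and 6 and the day 10 libraries in lanes 1, 2 and 3. The part of lane in these earlier changes was not tested. mir-34 averaged 499 ± 42.5, 786 ± 75.1, 1294 ± 61.9 and 3486 ± 505 CPM at days 1, 5, 10 and 20 (SD, n = 3, 3, 3 and 2), higher at each age than at the one before. mir-239b likewise averaged 315 ± 20.3, 525 ± 144, 1398 ± 241 and 7851 ± 787 CPM at the 4 ages. let-7 and mir-237 were lower at each later age, mir-237 with 39057 ± 666, 15149 ± 2612, 5017 ± 501 and 1478 ± 10.3 CPM. For mir-237 the day 10 minus day 1 change was -2.96 ± 0.14, beside -1.76 ± 0.16 for day 20 minus day 10.

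For some hairpins that fell late, the earlier change did not pass the test. mir-70 averaged 27885 ± 1236, 33063 ± 4904, 25237 ± 2703 and 6206 ± 331 CPM at days 1, 5, 10 and 20. Its day 10 minus day 1 change was -0.14 ± 0.11 (edgeR adjusted p = 0.28), beside -2.02 ± 0.14 for day 20 minus day 10. mir-71 averaged 6304 ± 486, 10098 ± 1038, 6751 ± 306 and 3104 ± 193 CPM at the same ages, so it was highest at day 5. mir-71 changed by 0.10 ± 0.10 between days 10 and 1 (adjusted p = 0.383), and by -1.12 ± 0.11 between days 20 and 10. Some hairpins moved in opposite directions in the intervals, mir-80 with 0.52 ± 0.11 early and -1.10 ± 0.13 late, and mir-48 with 0.52 ± 0.10 early and -0.58 ± 0.11 late. mir-77 and mir-83 likewise rose early, by 0.64 ± 0.11 and 0.95 ± 0.20, and fell late. The reverse held for mir-230, at -2.59 ± 0.18 early and 0.57 ± 0.20 late, and for mir-4813, at -2.18 ± 0.18 early and 0.78 ± 0.21 late. A turn of this kind uses the day 10 libraries with opposite signs, so an unusual day 10 level alone would give it.

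**Figure D4:**
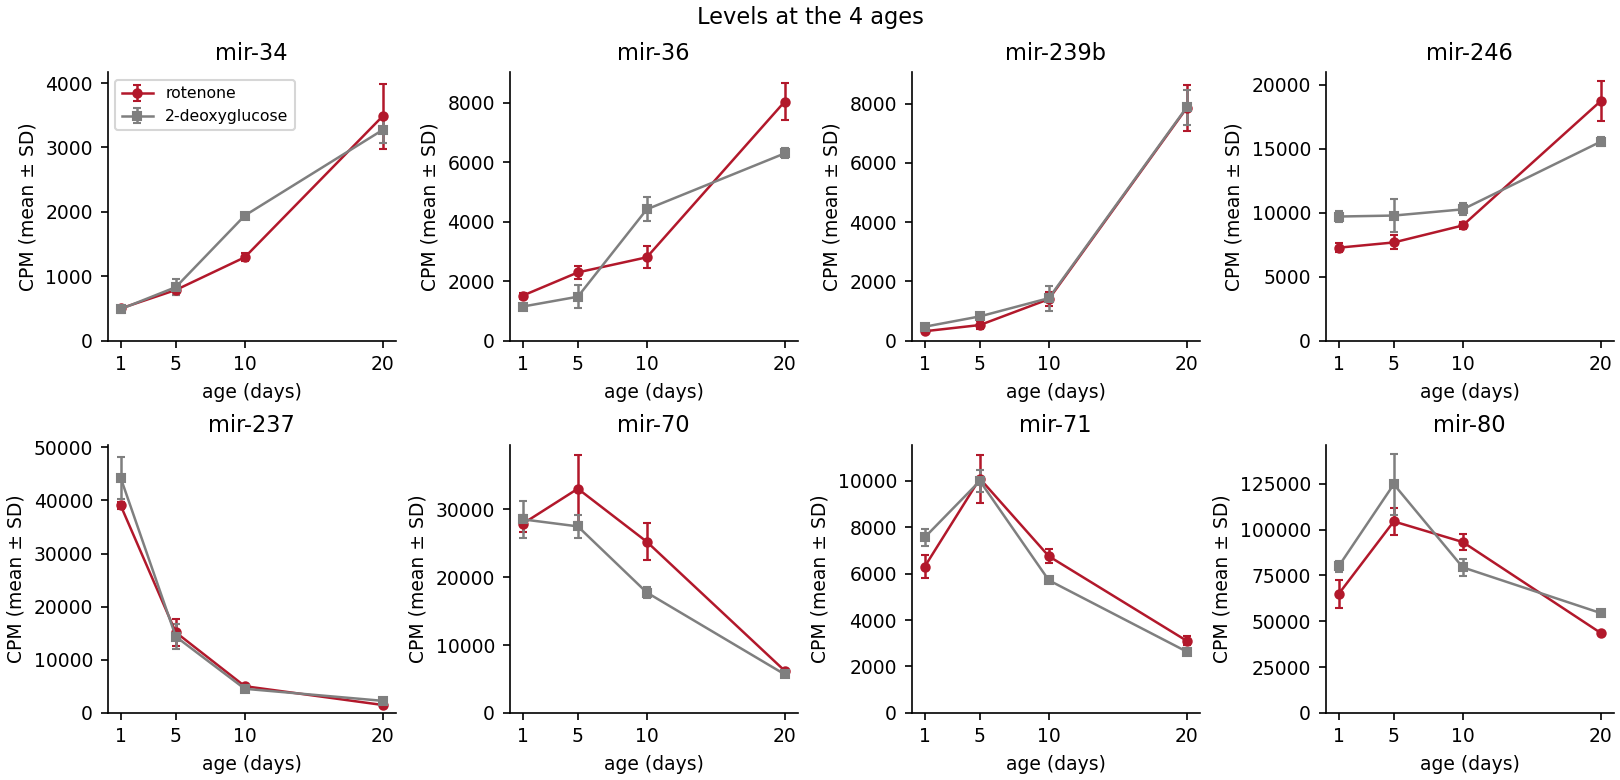
Mean level in CPM (bars are the SD, n = 3 libraries at days 1, 5 and 10 and n = 2 at day 20) of 8 hairpins at 4 ages, on linear axes that start at 0. Red circles are rotenone worms and grey squares 2-deoxyglucose worms; mir-34, mir-36, mir-239b and mir-246 are highest at day 20, and mir-237, mir-70, mir-71 and mir-80 are lowest at day 20 in both treatments.

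The same interval in 2-deoxyglucose worms, which shares no library with the rotenone comparison, gave 61 called hairpins (47.3%), 36 higher (27.9%) and 25 lower (19.4%) at day 20. This split was 15 higher and 36 lower when scaling left out the mir-35 family and the 5 hairpins with the most counts. As a description over the 129 hairpins, which are no replicates of each other, Pearson's r between the log2 changes of the treatments was 0.82 and Spearman's rho 0.79. Both treatments called 23 hairpins higher, which is 39.7% of the rotenone calls and 37.7% of the 2-deoxyglucose calls. Both called 20 lower, which is 34.5% and 32.8% of these calls. No hairpin was called in opposite directions in the fit of all libraries. mir-239b changed by 2.49 ± 0.22 in rotenone and 2.46 ± 0.22 in 2-deoxyglucose, and the 95% interval of the difference ran from -0.62 to 0.68. For mir-71 the changes were -1.12 ± 0.11 in rotenone and -1.11 ± 0.11 in 2-deoxyglucose, with an interval of the difference from -0.33 to 0.32.

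A test of the difference between the treatments called 7 hairpins (5.43%), 4 with a more positive change in rotenone (3.1%) and 3 with a more negative one (2.33%). The rotenone libraries of both ages ran in lanes 1, 2 and 3 and the 2-deoxyglucose libraries in lanes 4, 5 and 6. Treatment and lane therefore cannot be told apart where levels of the treatments are compared below. mir-2208a had the largest difference. At day 20 it had 131 and 116 CPM in rotenone worms, against 1111 and 1329.8 CPM in 2-deoxyglucose worms. At day 10 it had 16.1, 25.4 and 44.2 CPM in rotenone worms, against 30.1, 27.5 and 21.9 CPM in 2-deoxyglucose worms. The log2 change was 2.09 ± 0.28 in rotenone and 5.54 ± 0.27 in 2-deoxyglucose, a difference of -3.45 ± 0.41 (edgeR adjusted p = 6.44e-06). Its neighbour mir-2208b changed by 3.28 ± 0.46 in rotenone and 3.37 ± 0.37 in 2-deoxyglucose, and the 95% interval of that difference ran from -2.20 to 2.03. That interval is wider than the standard errors of the changes imply, and its width depends on how standard errors were taken from F.

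Of the embryo-linked family, mir-36, mir-39 and mir-38 rose more in rotenone. mir-36 changed by 1.52 ± 0.16 in rotenone and 0.51 ± 0.16 in 2-deoxyglucose, a difference of 1.01 ± 0.22 (edgeR adjusted p = 0.00943). The 2-deoxyglucose libraries, run in other lanes, held 6179 and 6413 CPM at day 20 and 4876, 4218 and 4151 CPM at day 10. These levels were above rotenone at day 10 and below it at day 20. The differences were 0.69 ± 0.15 for mir-39 (adjusted p = 0.00943) and 0.90 ± 0.25 for mir-38 (adjusted p = 0.0375). For mir-34 the change was 1.43 ± 0.13 in rotenone and 0.75 ± 0.13 in 2-deoxyglucose, a difference of 0.68 ± 0.19 (adjusted p = 0.0375). The level of mir-34 in 2-deoxyglucose worms was 3133 and 3411 CPM at day 20 and 1922, 1983 and 1922 CPM at day 10. mir-237 fell more in rotenone, at -1.76 ± 0.16 in rotenone and -1.00 ± 0.15 in 2-deoxyglucose (difference -0.76 ± 0.21, adjusted p = 0.0375). mir-244 changed by -0.23 ± 0.15 in rotenone and 0.64 ± 0.15 in 2-deoxyglucose (difference -0.87 ± 0.21, adjusted p = 0.0149). With only the 5 rotenone libraries fitted, mir-244 passed the test as lower (log2 -0.47 ± 0.15, edgeR adjusted p = 0.0101). Of the 7 calls, that of mir-2208a was kept in each other fit, while of the 20 other fits mir-237 lost its call in 13, mir-38 in 12, mir-34 in 7, mir-244 in 5, mir-39 in 3 and mir-36 in 2. The call of mir-237 was lost whichever library of the comparison was left out, and its difference was -0.45 with the scaling that left out the most counted hairpins. Those of mir-36 and mir-39 were lost when day 20 replicate 2 of either treatment was left out. With the scaling that left out the most counted hairpins, 16 differences were called, 15 of them more positive in rotenone.

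**Figure D5:**
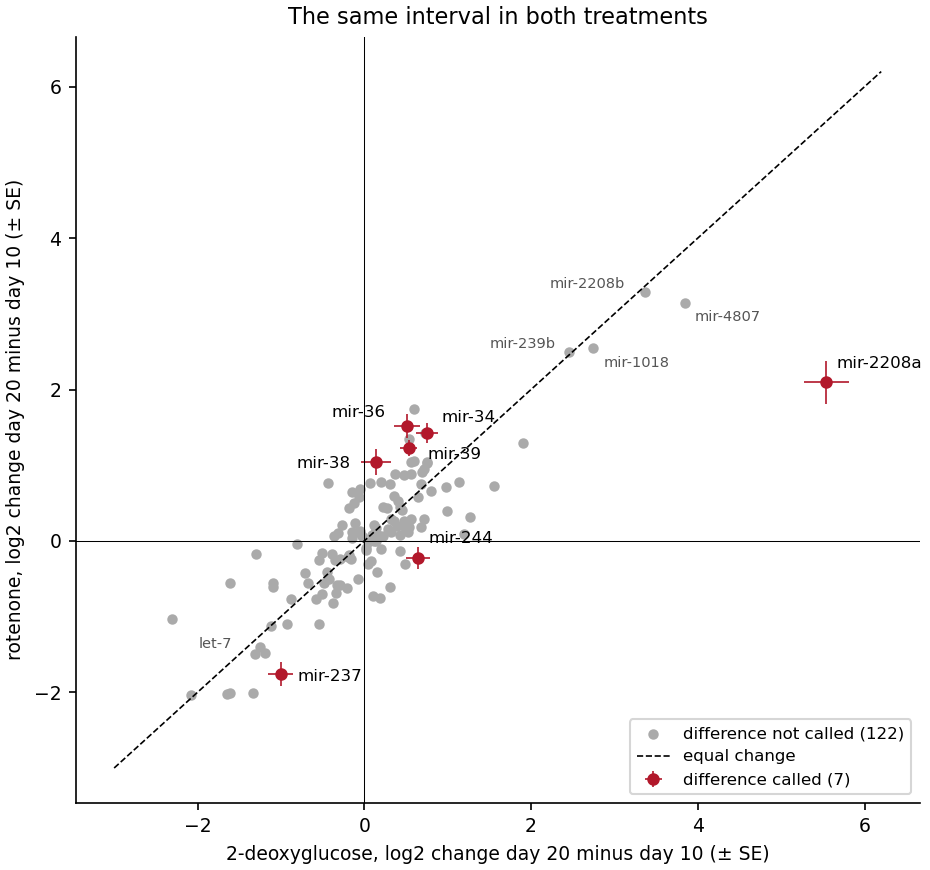
Log2 change between days 20 and 10 of the 129 tested hairpins in rotenone worms (vertical axis) against 2-deoxyglucose worms (horizontal axis), with a dashed line of equal change. The 7 hairpins whose difference was called are red with standard errors; mir-2208a lies far to the right of the line, and mir-36, mir-38, mir-39 and mir-34 lie above it.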

How the data were processed

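The table deposited by the authors holds unnormalised read counts of 250 microRNA hairpins in 22 libraries, with 0 columns of other samples. A TruSeq small RNA kit was used, per the labels' protocols. The submitters' processing notes name BWA 0.7.12-r1039, CASAVA 1.8.4, SAMtools 1.3.1-9 and Trimmomatic 0.36. No source used here gives the genome build, the use of strand or the treatment of multiply mapping reads, and hairpin arms could not be separated. Library totals, given above, cover counting error only, as PCR copies cannot be told from separate molecules.

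Counts were fitted with edgeR 4.0.16 (limma 3.58.1, R 4.3.3): TMM scaling, all 22 libraries in 8 groups sharing 1 estimate of the spread, robust quasi-likelihood F tests, and Benjamini-Hochberg adjustment over the 129 hairpins with at least 10 counts in at least 2 of the 5 libraries. Variation between libraries beyond counting error, part of it possibly technical, had a median coefficient of 13.0%. Each standard error is the size of the log2 change over the square root of its F, and intervals are 95%. The fit was tested on simulated data. Alternatives included DESeq2 1.42.0. Replicates were numbered in accession order, which pairs no samples. Pairs of libraries of 1 age differed beyond counting noise, with chi-square per degree of freedom of 53.2 or more, so none looked like the same library deposited again.

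The 5 libraries were picked by their labels and by no measured value, but with earlier results of these data known, as were the 23 hairpin lists. Hairpins named are the 12 largest rises and 12 largest falls among those called, 6 of the called differences between treatments with the smallest adjusted p, a set followed in each contrast, the 5 with the most counts, list members, and those next to the threshold; others are named as chosen after their values were seen, mir-38 being the 7th difference. In RefSeq, 245 of the 250 names matched; the RefSeq and Ensembl tables (WBcel235) gave chromosomes, host genes and neighbours within 10000 bases, and no coordinates are given.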

Additional observations from a re-analysis of the deposited data

Results flagged for a closer look

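The change between days 20 and 10 differed between the treatments for 7 hairpins by a test of the difference itself (edgeR, rotenone minus 2-deoxyglucose, on the log2 scale). For mir-2208a it was -3.45 (95% interval -4.30 to -2.60). It was 1.01 for mir-36, 0.90 for mir-38 and 0.69 for mir-39, and 0.68 for mir-34. mir-244 differed by -0.87 and mir-237 by -0.76. The treatments hold 2 libraries each at day 20, and at an unadjusted p below 0.05 the test gave 22 hairpins.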

How the results depend on the processing

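The 58 calls of the rotenone comparison became 29 with a log2 change of at least 1 required as well, and 44 to 55 when any 1 library was left out. With the 5 libraries fitted alone, 29 hairpins were higher and 36 lower (44.6% higher), against 34 and 24 (58.6% higher) in the fit of all libraries, and the median over all hairpins was -0.13 there and 0.11 here. Over the settings the mir-35 family kept 5 to 7 rises. For 2-deoxyglucose, the 61 calls became 40 to 54 with 1 library left out, the lowest without day 20 replicate 1, and scaling without the mir-35 family and the 5 hairpins with the most counts gave 15 higher and 36 lower. The 7 differences between treatments became 16 with that scaling, 17 with only the libraries compared, 11 with DESeq2 and 3 with no filter, the last with 209 hairpins tested. Leaving out 1 library gave 1 to 7: 1 without rotenone day 20 replicate 2, 1 without 2-deoxyglucose day 20 replicate 2, 3 without rotenone day 10 replicate 1, and 4 without either 2-deoxyglucose day 10 replicate 2 or replicate 3. Where a day 20 library was left out, the lone library of its group was assumed to vary like the other groups. The cause of these shifts was not tested. No paired analysis was possible because the labels give no replicate numbers; the sequencing lane, which they do give, entered as a factor gave 61 calls for rotenone. At a few counts per library, as for lsy-6 and mir-124, depth limits what could be seen.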
